A study of Mus musculus with 36 samples.

Results

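A set of 9 genes that mark B cells or encode the constant parts of antibodies was followed through 36 bulk RNA sequencing libraries of subcutaneous mouse tumours. The genes are Cd79a, Cd79b, Ms4a1, Ighm, Jchain, Igkc, Ighg1, Ighg2b and Ighg2c, taken by name as 9 of the 37417 genes in the count table, and all 9 had a row there. Levels are given as CPM, the read count of a gene scaled to the total of reads assigned to genes in that library. The study grew 3 tumour lines in wild-type mice 12 weeks old: MC38, a colon adenocarcinoma line, and PancO2, a pancreatic adenocarcinoma line, in C57BL/6J mice, and CT26, a colon carcinoma line, in BALB/c mice. Each line was treated with an antibody against PD-1, an antibody against CTLA4 or control IgG from rat serum, at 10 mg/kg into the peritoneum, which gives 9 labelled groups of 4 tumours. Each library was made from RNA of 1 whole tumour taken at end stage, so it holds cancer cells, stroma and immune cells together, and each line was injected under the skin rather than into its organ of origin. Libraries are named by labelled group and the number in their title, as in MC38 IgG 7.

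B cells carry an antigen receptor made of a membrane immunoglobulin and a signalling pair encoded by Cd79a and Cd79b, and most of them also carry CD20, the product of Ms4a1. The heavy chain of a naive B cell is IgM, encoded by Ighm. After activation the cell can switch to Ighg1, Ighg2b or Ighg2c, which encode IgG subclasses. Plasma cells secrete the antibody in bulk, pair most heavy chains with the kappa light chain encoded by Igkc, and make the joining chain, encoded by Jchain, that links IgM and IgA into polymers. The IgG2 locus differs between inbred mice: C57BL/6 mice carry Ighg2c, whereas BALB/c mice carry Ighg2a in its place.

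The IgG genes are close copies of each other, so the sequences that tell them apart set how far their counts can be trusted. The second exon encodes the hinge, which joins the antigen-binding arms to the stem, and it is the stretch in which the subclasses differ most visibly in length and letters. The hinge exons below are read 5′ to 3′ from GENCODE transcripts of GRCm38, all on the minus strand of chromosome 12, at chr12:113329844-113329882 for Ighg1, chr12:113307261-113307326 for Ighg2b and chr12:113288263-113288325 for Ighg2c.
Ighg1 hinge: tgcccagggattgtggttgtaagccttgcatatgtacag
Ighg2b hinge: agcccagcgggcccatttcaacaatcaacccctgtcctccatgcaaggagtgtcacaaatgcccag
Ighg2c hinge: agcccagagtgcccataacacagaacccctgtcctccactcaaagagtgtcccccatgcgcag
The longest run that Ighg2b and Ighg2c hold in common lies in exon 3 of both and spans 78 bases, shown in capitals in both genes with the flanking bases in lower case, at chr12:113306857-113306958 for Ighg2b and chr12:113287857-113287958 for Ighg2c.
Ighg2b shared run: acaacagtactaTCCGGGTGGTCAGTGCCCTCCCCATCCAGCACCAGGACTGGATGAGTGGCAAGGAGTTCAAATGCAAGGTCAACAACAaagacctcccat
Ighg2c shared run: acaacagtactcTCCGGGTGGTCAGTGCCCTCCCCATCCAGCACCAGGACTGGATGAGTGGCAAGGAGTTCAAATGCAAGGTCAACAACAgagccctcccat
A read that lies wholly in such a run has no unique position and is set aside by the counting. Of all windows of 50 bases in the annotated transcripts, 5.49% of those of Ighg2c were also found in another gene, in every case Ighg2b. The share was 4.15% for Ighg2b and 0.393% for Ighg1. Cd79a shared 8.31% of its windows with Gm32220, a processed pseudogene. Ighm, Igkc, Jchain and Cd79b shared none. Igkc overlaps the non-coding gene Gm30211 on its own strand and Ms4a1 overlaps the antisense gene 4930526L06Rik. The library kit named in the labels does not mark strand, so reads in the stretch that Ms4a1 shares with its antisense partner cannot be told apart.

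The libraries were described by class, not only by label, because the labels and the transcripts disagree. A library was put in the H2-Ea class when H2-Ea-ps, a class II gene that C57BL/6 mice do not express because of a promoter deletion, was above 10 CPM. It was put in the Cp-high class when Cp, which encodes ceruloplasmin, was above 1000 CPM, and otherwise in the class with neither. Each class held 12 libraries. H2-Ea-ps ran from 32.8 to 134 CPM inside its class and reached 0.0845 CPM outside it. Cp started at 1389 CPM in its class and the library just below the threshold, PancO2 IgG 49, had 611 CPM. By labelled line, in the order MC38, CT26 and PancO2, the H2-Ea class was made up of 4, 4 and 4 libraries, although only CT26 carries the label BALB/c. The Cp-high class was made up of 4, 3 and 5 and the class with neither of 4, 5 and 3. Groups below are therefore groups of labels, the classes are not groups of the study, and what tumour or strain a class stands for was not tested.

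Totals ran from 7883106 to 41751023 assigned reads, so that a count of 0 allowed a level of up to 0.0719 CPM in the deepest and 0.381 CPM in the shallowest library. The shallowest was PancO2 anti-PD-1 71, in which 86.5% of the listed reads were assigned to no gene, against 44.8% to 63.4% in the other 35 libraries, and 15.7% of assigned reads came from mitochondrial genes, against 2.80% to 4.35%. Results that rest on it are given with and without it.

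The genes of a B cell lineage list of 21 lay at very different levels. The median was under 1 CPM for 13 of them in the Cp-high class, 11 in the H2-Ea class and 12 in the class with neither, and Fcmr and Vpreb3, both known from B lineage cells, did not pass 0.162 CPM and 0.228 CPM in any library. The medians that reached 10 CPM in a class belonged to Ebf1, Cd180, Cd72 and Blnk. Ebf1 had medians of 85.6 CPM in the Cp-high class, 4.45 CPM in the H2-Ea class and 69.9 CPM in the class with neither, and Cd180 had 49.3, 19.8 and 18.1 CPM in that order. Cd72 had 43.6, 16.8 and 20.1 CPM, and Blnk, an adaptor of B cell receptor signalling, 15.2, 15.9 and 11.6 CPM. These 4 genes made up a median of 87.7%, 74.1% and 80.6% of the summed level of the list. Ebf1 is also known from stromal and fat cells, and Cd72, Cd180 and Blnk from macrophages. These genes were picked out after their values were seen. In bulk tissue, the number of B cells, the RNA per B cell and transcripts from other cells cannot be told apart. This holds for every level that follows, and which cells the reads of the members came from was not tested.

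Among the genes of the receptor, Ighm stood far above the rest. Its level in the Cp-high class was 25.4 CPM at the lowest, 31.7 CPM at the median and 56.1 CPM at the highest (mean 36.6 ± 9.57 CPM, SD, n = 12). In the H2-Ea class it was 9.15, 13.3 and 29.2 CPM (14.6 ± 5.10), and in the class with neither 2.25, 6.85 and 15.5 CPM (7.73 ± 4.12). Every Cp-high library was thus above every library with neither, and the H2-Ea libraries lay between and overlapped both. CT26 anti-CTLA4 35 was the H2-Ea library at 29.2 CPM, the next was at 17.4 CPM.

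Cd79a, the alpha chain of the signalling pair, followed another order. It was highest in the class with neither, at 1.27, 2.27 and 4.24 CPM for the lowest, median and highest library (2.68 ± 1.06). In the Cp-high class the levels were 0.348, 0.610 and 1.52 CPM (0.681 ± 0.329). In the H2-Ea class they were 0.320, 0.669 and 14.3 CPM (1.85 ± 3.95), where the 14.3 CPM came from PancO2 anti-PD-1 71 and the next library was at 1.52 CPM. Only the lowest library with neither, PancO2 IgG 51 at 1.27 CPM, lay within the range of the Cp-high class.

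Cd79b, the beta chain of the same pair, did not share this order. Its lowest, median and highest levels were 0.465, 1.25 and 3.04 CPM in the Cp-high class, 0.0539, 0.510 and 1.27 CPM in the H2-Ea class and 0.352, 1.10 and 1.93 CPM in the class with neither. The Cp-high class and the class with neither overlapped over most of their ranges, and the H2-Ea class overlapped both but had the lowest median. Ms4a1 was near the limit of detection in all of them, with medians of 0.160, 0.126 and 0.107 CPM, 147 counts over the 36 libraries, and 2.79 CPM as its highest level, again in PancO2 anti-PD-1 71. Without that library no tumour passed 0.300 CPM of Ms4a1.

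The genes of secreted antibody were low in most tumours and high in a few. Igkc had a lowest level of 0.658 CPM, a median of 2.22 CPM and a highest level of 16.04 CPM in the Cp-high class, against 0.169, 0.431 and 1.85 CPM in the H2-Ea class and 0, 0.488 and 1.99 CPM in the class with neither. The levels of Jchain were 0.380, 1.07 and 7.36 CPM, 0.0971, 0.404 and 1.65 CPM, and 0.118, 0.327 and 1.04 CPM in the same order. For both genes the 2 highest of the 36 libraries were MC38 IgG 7 and CT26 anti-PD-1 46, which carry different labelled lines and treatments and are both Cp-high. The lower part of the Cp-high class overlapped the other classes.

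Of the IgG genes, Ighg2c had 0.0548, 0.963 and 9.69 CPM in the Cp-high class, 0, 0.0163 and 0.215 CPM in the H2-Ea class and 0, 0.0338 and 1.90 CPM in the class with neither. Ighg2b had 0.0867, 0.775 and 4.27 CPM, 0, 0.0572 and 0.216 CPM, and 0, 0.0458 and 3.07 CPM. Both were above 0 in each Cp-high library, and at 0 in 6 and 4 of the 12 H2-Ea libraries. Ighg1 differed from them in that its median was not highest in the Cp-high class: its medians were 0.126 CPM there, 0.189 CPM in the H2-Ea class and 0 in the class with neither, where 8 of 12 libraries had no count. Its highest level, 1.78 CPM, was in PancO2 IgG 54, an H2-Ea library. The plot of all 9 genes by class shows these ranges.

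**Figure D1:**
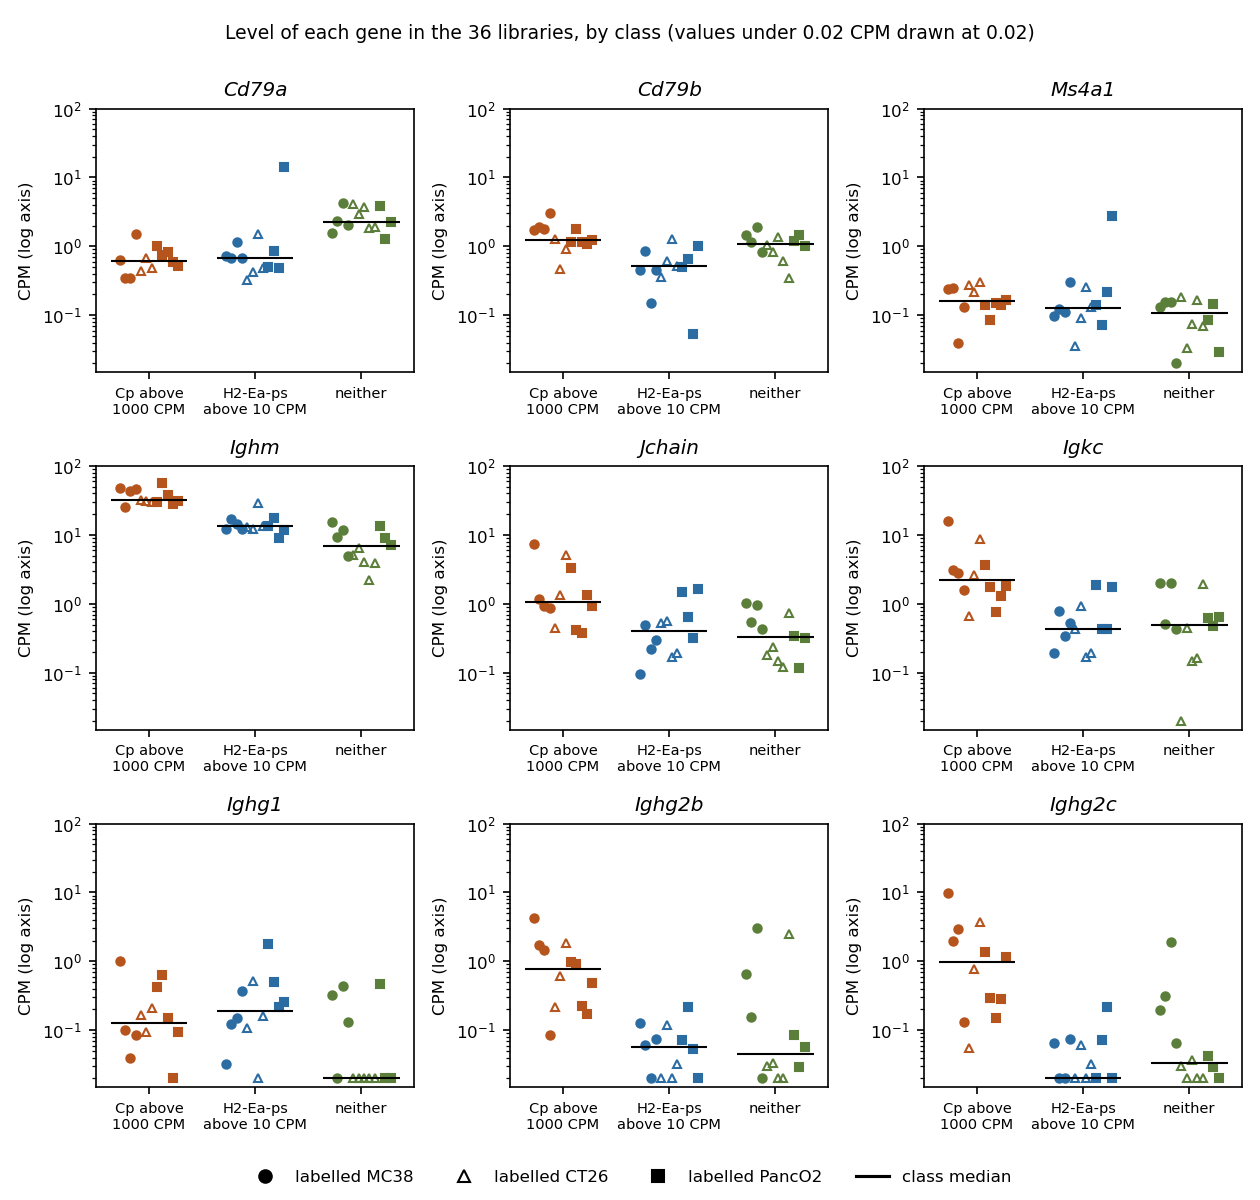
Level of each gene in CPM on a log axis in the 36 libraries, split by class, with the shape of the point giving the labelled line and the bar the class median. Ighm sat at 25.4 CPM or more in all 12 Cp-high libraries and at 15.5 CPM or less in all 12 libraries with neither, while 1 H2-Ea library, PancO2 anti-PD-1 71, stood apart at 14.3 CPM of Cd79a and 2.79 CPM of Ms4a1.

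Per kilobase of annotated exon, a rough scale for setting different genes side by side, the IgM heavy chain exceeded the kappa light chain in 33 of 36 libraries. Lengths were taken over all transcripts of a gene. They were 2592, 2678 and 2512 bases for Ighg1, Ighg2b and Ighg3, where 1 transcript of each has 1076, 1114 and 1082. This can lower the IgG levels and raise the share of Ighm. Reads of Igkc that overlap Gm30211 may be missing. Neither effect was tested. The median of Ighm was 16.8 CPM per kilobase in the Cp-high class against 4.17 CPM per kilobase of Igkc, 7.04 against 0.811 in the H2-Ea class and 3.63 against 0.917 in the class with neither. The exceptions were MC38 IgG 7, at 25.3 CPM per kilobase of Ighm against 30.1 of Igkc, CT26 anti-PD-1 46, at 15.9 against 16.3, and CT26 anti-PD-1 41, at 2.09 against 3.70. As a share of the heavy chain constant genes per kilobase (Ighm and the 4 IgG genes), Ighm made up a median of 94.4% in the Cp-high class, 98.4% in the H2-Ea class and 96.5% in the class with neither. Its lowest shares were 72.9%, 91.0% and 68.5%.

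The classes were compared with edgeR's quasi-likelihood test over all 36 libraries, with Benjamini-Hochberg adjustment over the 16323 genes tested and a difference called at an adjusted p under 0.05. Only Cd79a, Cd79b, Ighm, Jchain and Igkc passed the filter on low counts, which asks for enough reads in as many libraries as the smallest class holds. Ms4a1, Ighg1, Ighg2b and Ighg2c were not tested there. The classes differed in most of the transcriptome, so a call is not particular to these genes: 67.6% of the genes tested were called between Cp-high and neither (34.2% higher and 33.4% lower in Cp-high), 70.9% between H2-Ea and neither (36.9% higher and 34% lower in H2-Ea) and 74.1% between H2-Ea and Cp-high (38.1% higher and 36% lower in H2-Ea).

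Between the Cp-high class and the class with neither, 4 of the 5 tested members were called. Ighm was higher in Cp-high by a log2 fold change of 2.27 (SE 0.22, edgeR adjusted p = 2.34e-11), Igkc by 2.28 (SE 0.54, edgeR adjusted p = 0.000338) and Jchain by 2.22 (SE 0.49, edgeR adjusted p = 0.000134). Cd79a was lower, at -1.95 (SE 0.48, edgeR adjusted p = 0.000561). Cd79b, at 0.42 (SE 0.29, edgeR adjusted p = 0.198), did not pass. Of these, only Ighm had groups that did not overlap. How many of all genes tested separated these classes in the same way was not counted, so this is not shown to be particular to Ighm. Among the called genes the direction therefore split within the receptor itself, with the heavy chain higher and the alpha chain lower in the same libraries.

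Between the H2-Ea class and the class with neither, 2 of the 5 were called. Ighm was higher in the H2-Ea class, at 1.02 (SE 0.22, edgeR adjusted p = 9.43e-05), and Cd79b lower, at -0.89 (SE 0.30, edgeR adjusted p = 0.00901). Cd79a had -0.52 (SE 0.47, edgeR adjusted p = 0.331), but this value rested on PancO2 anti-PD-1 71. Without that library it was -1.85 (edgeR adjusted p = 2.90e-08), and 4 members were called, since Ighg2b then passed the filter and was lower, at -2.72 (SE 0.98, edgeR adjusted p = 0.0129). In that fit 72.8% of all genes were called. The values of Jchain, 0.39 (SE 0.51), and Igkc, -0.19 (SE 0.56), did not pass.

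All 5 tested members were called between H2-Ea and Cp-high. The H2-Ea class was lower in Igkc, at -2.47 (SE 0.56, edgeR adjusted p = 0.000185), Jchain, at -1.83 (SE 0.50, edgeR adjusted p = 0.00127), Cd79b, at -1.31 (SE 0.30, edgeR adjusted p = 0.000229), and Ighm, at -1.25 (SE 0.22, edgeR adjusted p = 3.17e-06). Cd79a was higher, at 1.43 (SE 0.49, edgeR adjusted p = 0.00957), and this call ended without PancO2 anti-PD-1 71, at 0.10 (edgeR adjusted p = 0.727), in a fit with 76.4% of all genes called. With no filter on low counts the other 4 members could be fitted too, and Ighg2c and Ighg2b were then lower in the H2-Ea class than in Cp-high, at -5.15 (SE 0.96, edgeR adjusted p = 2.17e-05) and -3.80 (SE 0.90, edgeR adjusted p = 0.000535). Ighg1 had 0.53 (SE 0.72, edgeR adjusted p = 0.557) in that fit, which gave calls in 49.9% of all genes. Ighg2c was also higher in Cp-high than in the class with neither, at 3.09 (SE 0.78, edgeR adjusted p = 0.00121), with 42.6% of all genes called.

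**Figure D2:**
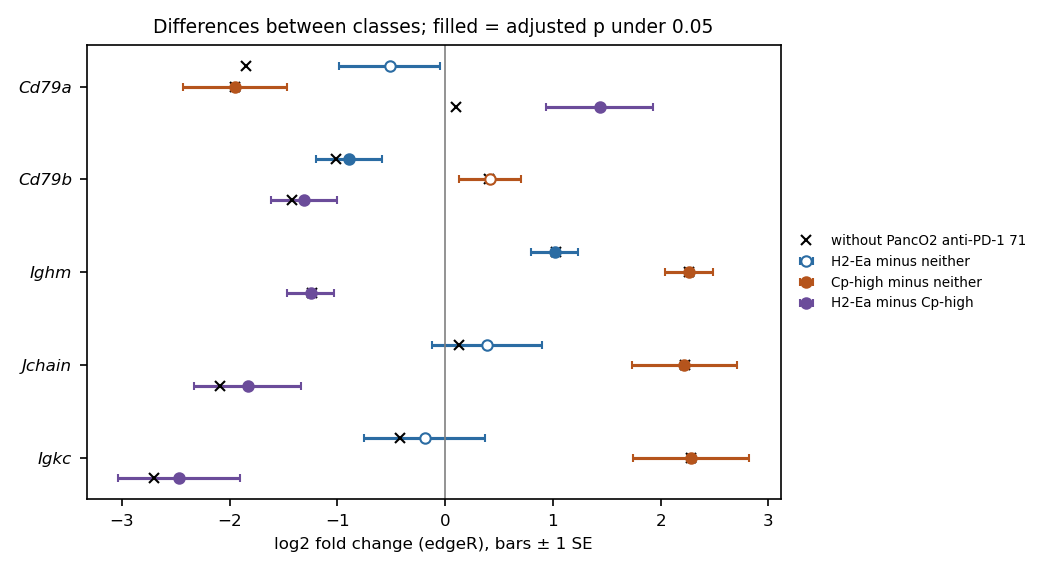
Log2 fold changes (edgeR, ± 1 SE) of the 5 tested members in the 3 comparisons of classes, filled where the adjusted p was under 0.05, with crosses for the value without PancO2 anti-PD-1 71. The crosses leave Ighm in place and move Cd79a from -0.52 to -1.85 and from 1.43 to 0.10.

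The other genes of the B cell lineage, 21 in a list, were set beside the members. In Cp-high against neither, 14 were tested, 6 were higher and 2 lower (median log2 fold change 0.45, against 0.02 over all genes tested). Bank1, a scaffold of B cell receptor signalling, was lower at -2.33. Cd180, a Toll-like receptor of B cells and macrophages, and Cd72 were higher at 1.49 and 1.37. In H2-Ea against neither 4 were higher and 5 lower (median -0.02, against 0.03), led by Ebf1 at -3.43, Cd22, an inhibitory receptor, at -1.32, and Cxcr5, the receptor that draws B cells into follicles, at -1.30. In H2-Ea against Cp-high 3 were higher and 8 lower (median -0.75, against 0.04), with Ebf1 at -3.98, Bank1 at 2.76 and Cxcr5 at -2.36.

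The plasma cell list, with 8 of 9 genes tested, had calls in both directions in each of the class comparisons. In Cp-high against neither 3 were higher and 3 lower, with Sdc1, which encodes syndecan-1 of plasma cells and of epithelial cells, at 2.14, Prdm1, the factor that drives plasma cell differentiation, at -1.70, and Eaf2 at 1.67. In H2-Ea against neither 1 was higher and 3 lower, with Sdc1 at -1.33, Xbp1, a regulator of the secretory pathway, at -0.66 and Txndc5 at -0.29. In H2-Ea against Cp-high 3 were higher and 4 lower, with Sdc1 at -3.47, Eaf2 at -1.71 and Derl3 at -1.54. Sdc1 had class medians of 485, 40.7 and 112 CPM for Cp-high, H2-Ea and neither. Mzb1, known from B and plasma cells, did not pass 0.382 CPM in any library. Tnfrsf17, the plasma cell receptor for survival factors, was at 0.569 to 1.40 CPM in the H2-Ea class and at 0.127 CPM or less elsewhere, whereas Mzb1 had its lowest median, 0.0162 CPM, in the H2-Ea class. Tnfrsf17 and Mzb1 were picked out after their values were seen.

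Among the factors that attract B cells and keep them alive, 9 of 10 were in the table and 7 were tested. In Cp-high against neither 5 were higher and 1 lower, with Ltb, which encodes lymphotoxin beta, at 1.57, the chemokine gene Cxcl12 at -1.09 and Tnfsf13b, the gene of the survival factor BAFF, at 0.93. In H2-Ea against neither 4 were higher and 2 lower, with Cxcl13, the chemokine that draws B cells through Cxcr5, at 2.50, Tnfsf13b at -1.91 and Cxcl12 at 1.12. In H2-Ea against Cp-high 1 was higher and 4 lower, with Tnfsf13b at -2.85, Cxcl12 at 2.21 and Tnfsf13, the gene of APRIL, at -1.87. Of 5 tested germinal centre genes out of 6, 4 were called in Cp-high against neither, with Gcsam at 3.05, S1pr2 at -1.05 and Bcl6 at 0.99. In the other comparisons 3 and 4 were called, with Mybl1 at 1.44 against neither, and Gcsam at -2.72 against Cp-high.

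Receptors for antibodies, 7 tested of 8, split in direction as well. Fcgr2b, the inhibitory receptor for IgG, was at -1.52 and Fcgr3, an activating one, at -1.06 in Cp-high against neither, where Fcgrt, which protects IgG from breakdown, was at 0.87. In all, 3 were higher and 2 lower there. In H2-Ea against neither 0 were higher and 4 lower, with Fcgr3 at -1.23, Fcer1g at -0.80 and Fcgr2b at -0.63, and in H2-Ea against Cp-high 1 was higher and 3 lower, with Fcgrt at -1.16, Fcer1g at -1.05 and Fcgr2b at 0.89. The 3 other constant genes found in the table (Ighg3, Ighe and Iglc2, of 8 listed) and the 3 lymph node stroma genes found (of 5) did not pass the filter in any comparison, and Ighe had 0 counts in all 36 libraries.

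Markers of other cells differed between the classes as well, though not always where the members did. Their part in these results was not tested. Of all genes tested, 67.6% were called in Cp-high against neither, 70.9% in H2-Ea against neither and 74.1% in H2-Ea against Cp-high. In Cp-high against neither 1 macrophage gene was lower and 5 were not called. The 6 T cell genes, all tested, were all higher in Cp-high than in neither (Cd4 at 1.63, Cd3g at 1.14 and Cd3d at 1.09) and all higher in Cp-high than in H2-Ea, with 0 of 6 called between H2-Ea and neither by edgeR, also at an unadjusted p under 0.05. Their summed level ran from 44.7 to 145 CPM in Cp-high, from 17.2 to 44.4 CPM in H2-Ea and from 4.80 to 88.7 CPM in neither. All 6 macrophage genes were lower in H2-Ea than in either other class, with C1qb at -0.99 and -1.19. Of 4 tested genes of plasmacytoid dendritic cells, which share several genes with B cells, 3 were higher and 1 lower in H2-Ea against neither. Siglech, their defining receptor, was at 3.88 there and at 1.67 without PancO2 anti-PD-1 71. In H2-Ea against Cp-high 2 of these genes were higher and 1 lower, and Siglech turned from 1.74 (edgeR adjusted p = 0.00959) to -0.47, not called (edgeR adjusted p = 0.0699), without that library. Of 2 tested skin genes, Krt14 was at -6.25 in H2-Ea against neither, and Krt10 at 1.10 in Cp-high against neither.

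The design's own comparisons, between antibodies within a labelled line and between lines under control IgG, gave no call. In each of the 9 comparisons 0% of the 16285 to 16510 genes tested were called by edgeR's quasi-likelihood test, the members included, and DESeq2 and limma-voom called 0 members as well. At an unadjusted p under 0.05, the share of all genes was 0.374% in MC38 anti-PD-1 against IgG, 0.153% in MC38 anti-CTLA4, 0.332% in CT26 anti-PD-1, 0.528% in CT26 anti-CTLA4, 5.56% in PancO2 anti-PD-1 and 0.488% in PancO2 anti-CTLA4 against IgG, and 0.563%, 0.594% and 0.503% in PancO2 against MC38, PancO2 against CT26 and CT26 against MC38 under IgG. There were 2 member results at that level in the 9 comparisons, Igkc in CT26 IgG against MC38 IgG and Ighg1 in PancO2 IgG against CT26 IgG. Igkc in the 4 MC38 IgG libraries was at 1.98, 0.194, 0.788 and 16.04 CPM, and in the 4 CT26 IgG libraries at 0, 0.427, 0.658 and 0.441 CPM. The ranges overlapped, the log2 fold change was -3.61 (SE 1.40, edgeR unadjusted p = 0.0258), and the adjusted p was 0.9998. Ighg1 was at 0.421, 0.464, 0 and 1.78 CPM in PancO2 IgG and at 0, 0.107, 0.164 and 0 CPM in CT26 IgG, with a log2 fold change of 3.28 (SE 1.49, edgeR unadjusted p = 0.0498).

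Differences in Ighm between the antibody and control groups lay within the spread of the groups. It averaged 23.0 ± 16.6 CPM in MC38 IgG (SD, n = 4), 26.8 ± 21.3 CPM in MC38 anti-PD-1 and 15.2 ± 7.10 CPM in MC38 anti-CTLA4. It averaged 14.2 ± 12.3, 12.4 ± 12.8 and 19.2 ± 13.3 CPM in the CT26 groups in the same order, and 16.6 ± 9.43, 20.04 ± 11.1 and 29.5 ± 21.7 CPM in the PancO2 groups. The SD exceeded the mean in CT26 anti-PD-1 and was below it in the other 8 groups, and each labelled group held libraries of more than 1 class. In CT26 anti-PD-1 against IgG, Igkc had a log2 fold change of 2.87 (SE 1.46) and Jchain 2.15 (SE 1.13), neither called (edgeR unadjusted p = 0.0752 and 0.0838), and both highest values came from CT26 anti-PD-1 46. With class added as a term to these fits, 0 members were called in any of the 9 comparisons.

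The makeup of IgG was read from the counts of Ighg1, Ighg2b, Ighg2c and Ighg3 in each library. These counts were few, with a median of 61.5 in the Cp-high class, 7 in the H2-Ea class and 9 in the class with neither, and intervals below are 95% Wilson intervals, which cover counting error only. Over the 12 Cp-high libraries 660 of 1304 IgG counts were Ighg2c (50.6%, 47.9% to 53.3%). Over the class with neither it was 80 of 342 (23.4%, 19.2% to 28.2%), and over the H2-Ea class 12 of 116 (10.3%, 6.02% to 17.2%). In the H2-Ea class Ighg1 took 82 of those 116 counts, against 83 of 1304 in Cp-high and 39 of 342 in neither. In the class with neither 60 of the 80 came from MC38 anti-CTLA4 11, and without that library the share was 20 of 165 (12.1%, 7.99% to 17.98%), an interval that overlaps that of the H2-Ea class. Counts summed over a class are led by its highest libraries, and the share differed between single tumours of 1 class. It was 63.4% of 440 counts in MC38 IgG 7, 65.8% of 114 in MC38 anti-PD-1 17 and 64.9% of 74 in PancO2 anti-PD-1 70, but 15.9% of 44 in PancO2 anti-CTLA4 57, all 4 of them Cp-high.

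As the gene of the C57BL/6 allotype, Ighg2c bears on strain without the use of H2-Ea-ps. More than 3 counts of it were found in 9 of 12 Cp-high libraries, 3 of 12 with neither and 1 of 12 in the H2-Ea class, whose highest count was 4. By label, 2 of the 12 libraries labelled BALB/c and 11 of the 24 labelled C57BL/6J had more than 3 counts. The pair labelled BALB/c were CT26 anti-PD-1 46, with 123 counts of Ighg2c, and CT26 anti-CTLA4 36, with 25, and both were Cp-high. In these libraries the counts under the name Ighg2c stand beside a BALB/c label. Low Ighg2c in the H2-Ea class came together with low IgG of every kind but Ighg1, so its absence in a library is a weak reading: Ighg2c per Igkc count was 0.0822 in the H2-Ea class, 0.286 in neither and 0.502 in Cp-high, and without MC38 anti-CTLA4 11 it was 0.0922 in neither. CT26 anti-PD-1 41, with neither, had 0 of 73 IgG counts from Ighg2c, with 70 from Ighg2b, and PancO2 IgG 54, in the H2-Ea class, had 0 of 26, with 25 from Ighg1. Where reads of an Ighg2a transcript, which the table does not list by that name, would be counted was not tested, so Ighg2c counts alone do not settle the strain of a library.

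**Figure D3:**
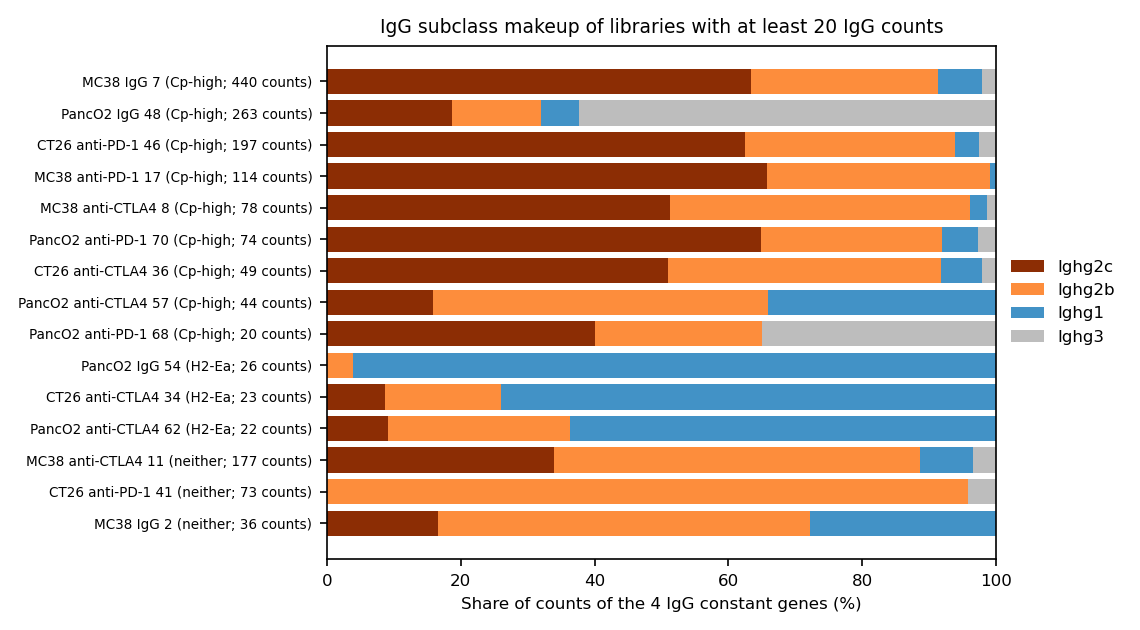
Share (%) of the 4 IgG constant genes in the counts of each library with at least 20 IgG counts, grouped by class, with the number of counts in brackets. Ighg2c took 63.4% of 440 counts in MC38 IgG 7 and 0 of 73 in CT26 anti-PD-1 41, and Ighg1 25 of 26 in PancO2 IgG 54.

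Tumours with a peak of antibody transcripts were listed where at least 4 of Jchain, Ighm, Ighg1, Ighg2b, Ighg2c and Igkc reached 4 times the class median with more than 3 counts. There were 3, all labelled MC38. MC38 IgG 7, Cp-high, reached it in 5 genes, with 16.04 CPM of Igkc (7.23 times the class median), 9.69 CPM of Ighg2c (10.1 times), 7.36 CPM of Jchain (6.91 times), 4.27 CPM of Ighg2b (5.51 times) and 1.01 CPM of Ighg1 (8.01 times). Ighm in this tumour was 47.6 CPM, 1.502 times the median. MC38 IgG 2 and MC38 anti-CTLA4 11, both with neither, reached it in the 3 IgG genes and Igkc. Ighg1 has a median of 0 in that class, so more than 3 counts were enough, and without Ighg1 both would fall short of 4 genes. CT26 anti-PD-1 46, Cp-high, had 8.70 CPM of Igkc and 5.07 CPM of Jchain but reached the rule in 1 gene, Jchain. That all listed tumours carry the MC38 label therefore depends on the rule. Their Igkc was at 1.98 and 1.99 CPM, below the median of the Cp-high class, so that a peak in their class is a level common in the other. Ighm was not among the genes of any peak.

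A plasma cell carries 1 rearranged heavy and 1 rearranged light chain, and reads of the variable genes show whether few or many were in use. The table held 89 variable genes. MC38 IgG 7 had 133 counts of them, spread over 41 genes, and the leading gene, Iglv1 of the lambda light chain, took 18.05% of them (95% Wilson interval 12.4% to 25.4%), with Igkv4-57 next at 14.3%. In MC38 anti-CTLA4 11 Igkv4-57-1 led with 9 of 33 counts (27.3%, 15.1% to 44.2%) and in MC38 IgG 2 Igkv15-103 with 6 of 29 (20.7%, 9.85% to 38.4%). In none of the peaks did 1 gene hold most of the counts. By contrast Igkv12-46 took 17 of 31 counts (54.8%, 37.8% to 70.8%) in CT26 anti-PD-1 41, the library with Ighg2b as nearly its whole IgG. Scaled to depth, variable genes were highest of the 36 libraries in PancO2 anti-PD-1 71, which is not a listed peak. They were at 9.13 CPM there (72 counts over 21 genes), against 4.62 CPM in MC38 IgG 7. CT26 anti-PD-1 41 and PancO2 anti-PD-1 71 were picked out here after their values were seen. Variable genes resemble each other, so reads without a unique position are missing from these counts.

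PancO2 IgG 48, Cp-high, differed from the others in the subclass it held: 164 of its 263 IgG counts were Ighg3, at 4.60 CPM, while no other library passed 0.414 CPM. It was also the library with the most Krt5, a keratin of the epidermis, at 108 CPM. Whether skin in this sample contributed the Ighg3 was not tested. This library, too, was picked out after its values were seen.

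Whether members varied together from tumour to tumour was examined within each class, on log2(CPM + 0.1), as 5 pairs of members in 3 classes. These 15 relations were chosen after the values were seen, and p-values come from 100000 permutations with Benjamini-Hochberg adjustment over the 15. Jchain and Igkc varied together in every class. Pearson's r was 0.912 in Cp-high (permutation p = 3e-05, adjusted p = 0.00015, Spearman's rho 0.790, permutation p = 0.00305, adjusted p = 0.0114, n = 12). It was 0.926 in the H2-Ea class (permutation p = 2e-05, adjusted p = 0.00015, rho 0.874, permutation p = 0.00049, adjusted p = 0.00245). It was 0.827 in the class with neither (permutation p = 0.00079, adjusted p = 0.00237, rho 0.762, permutation p = 0.00547, adjusted p = 0.0164). Without the 2 libraries farthest from the median r was 0.748, 0.803 and 0.705. All genes of a library share its depth and total.

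Ighg2c followed Igkc within Cp-high, with r of 0.921 (permutation p = 1e-05, the smallest these permutations can give, adjusted p = 0.00015, rho 0.944, permutation p = 4e-05, adjusted p = 0.0003) and 0.863 without 2 libraries. Ighg2b and Ighg2c had r of 0.915 there (permutation p = 9e-05, adjusted p = 0.00034, rho 0.930, permutation p = 3e-05, adjusted p = 0.0003) and 0.863 without 2 libraries. In the other classes neither pair passed after adjustment. Ighm and Igkc had r of 0.09 in Cp-high, -0.32 in H2-Ea and 0.53 in neither, with permutation p of 0.791, 0.319 and 0.0725, and rho of -0.14, -0.20 and 0.61, with permutation p of 0.666, 0.526 and 0.0401 (adjusted p = 0.0859 for the last). Cd79a and Cd79b, whose proteins form 1 dimer, had r of 0.19, 0.42 and 0.26, with permutation p of 0.551, 0.182 and 0.417, and rho of -0.056, 0.46 and 0.20, with permutation p of 0.868, 0.134 and 0.541. Neither of these pairs passed after adjustment in any class.

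**Figure D4:**
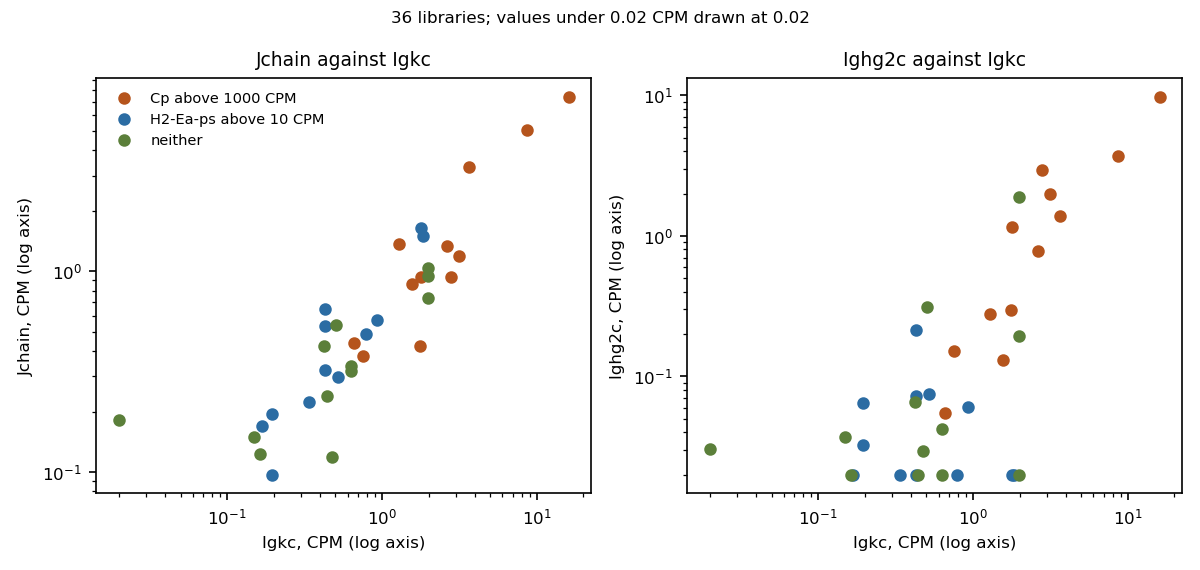
Jchain (left) and Ighg2c (right) against Igkc, in CPM on log axes, 1 point per library, coloured by class. Jchain was higher where Igkc was higher within each class (r of 0.912, 0.926 and 0.827), and Ighg2c did so in Cp-high (r of 0.921).

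Genes whose pattern was most like that of the members were ranked by the mean of the 3 within-class Spearman correlations, over 12 libraries in each class and 14180 genes, as a description. Most like the mean of Cd79a, Cd79b and Ms4a1 were Ms4a7, Snap29, Retnla, Stap1, Rab29, Rnf122, Txlnb and Ckmt1, with mean rho from 0.678 down to 0.605. Most like the mean of Jchain, Igkc, Ighg1 and Ighg2b were Ms4a4b, Prr15, Pla2r1, Rasgrp1, Galnt3, Slc7a2, Tent2 and Gimap1os, with mean rho from 0.664 down to 0.583. Neither set held a gene of the B cell lineage or plasma cell lists. The relation of Cd79a and Cd79b did not pass after adjustment in any class, and Ms4a1 was near the limit of detection. A pattern common to the genes of the first mean was therefore not shown. Only genes of at least 1 CPM in at least 12 libraries were ranked, so low genes of these lists, such as Mzb1, could not appear.

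PancO2 anti-PD-1 71, the shallow library of the H2-Ea class, stood apart in several genes of B cells but not in all. Cd79a was at 14.3 CPM (113 counts), where the other 11 libraries of the class lay between 0.320 and 1.52 CPM, and Ms4a1 at 2.79 CPM (22 counts) against 0.0355 to 0.299 CPM. Pax5, the factor that fixes B cell identity, was at 19.03 CPM against 0.0647 to 0.677 CPM, and Pou2f2 at 22.8 CPM against 1.78 to 6.26 CPM. Cd79b was at 1.01 CPM, inside the range of the others, and so was Ighm at 11.8 CPM. Jchain at 1.65 CPM (13 counts) was above all the others, and Igkc at 1.78 CPM (14 counts) was inside their range. Both reached 4 times the class median. Bank1 at 3.81 CPM and Cxcr5 at 0.761 CPM were inside the range of the others too. Fcmr and Vpreb3 had 0 counts, which allows up to 0.381 CPM here, and the others did not pass 0.162 and 0.228 CPM. These 2 genes therefore cannot be compared. Of the 9 genes of the plasma cell list 2 were above all the others, while Xbp1, Sdc1 and Txndc5 were below them all. Derl3 had 0 counts, and the others lay between 0.0711 and 0.683 CPM, so it is not shown to be below them. How many of all genes were lowest in this library was not counted. Siglech, of plasmacytoid dendritic cells, was at 69.6 CPM against 0.970 to 2.63 CPM. In all, 10 of 21 genes of the B cell lineage list were above each of the other 11 libraries, beside 38.3% of all 28249 genes with a count in the class, so that being highest in this library was common. The genes other than the members were picked out here after their values were seen, and the part of its depth, its unassigned reads and its mitochondrial share in these values was not tested.

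**Figure D5:**
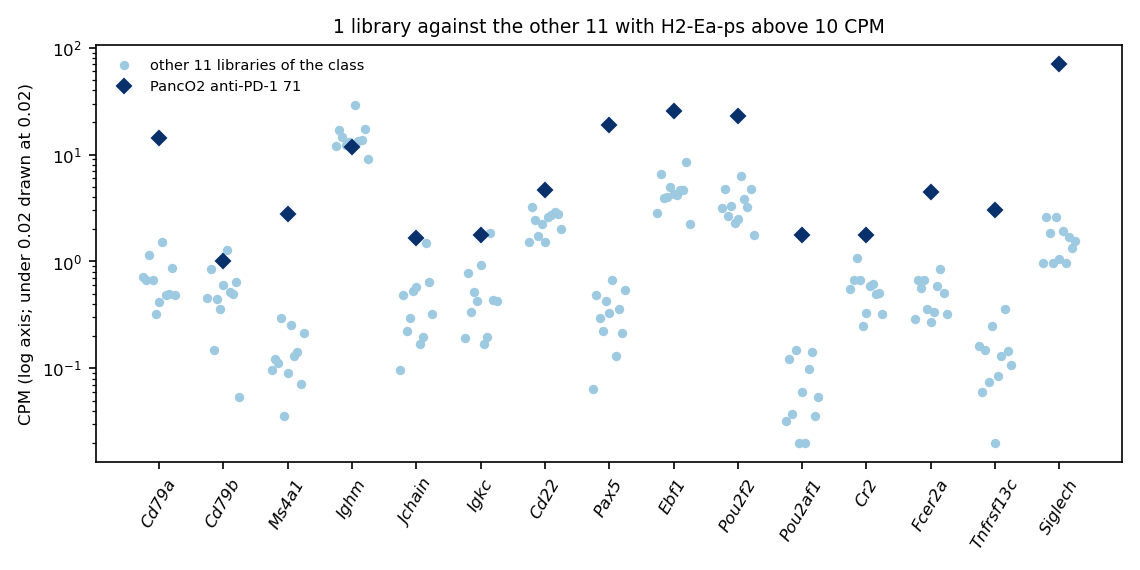
Levels in CPM on a log axis of members and other B cell genes in PancO2 anti-PD-1 71 (diamonds) and in the other 11 libraries of the H2-Ea class (points). Cd79a, Ms4a1, Pax5 and Siglech lay above all other libraries of the class, while Cd79b and Ighm lay inside their range.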

How the data were processed

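Poly-A RNA from 36 tumours was sequenced from libraries that the labels give as Illumina TruSeq V2, a kit that does not mark strand. The authors mapped the reads to GRCm38 (mm10) with TopHat and Bowtie and assigned them to Ensembl genes with HTSeq; the submitters' processing notes name FastQC 0.11.5 and HTSeq 07.2. The study's methods name a stranded KAPA kit and a read length in a section on unique mutations, and whether it covers these libraries is not stated. The strand setting and the Ensembl release are not given in the sources used here. As deposited, the table gives raw counts of reads for each gene, neither normalized nor pooled. HTSeq sets aside reads with more than 1 position, which lowers counts of near copies such as the IgG and variable genes. The table also held 5 summary lines that name no gene, 44.8% to 86.5% of the listed reads, and these were left out of totals and tests.

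Libraries were grouped by their labels, to which all 36 columns could be matched. Nothing in the labels states that the tumours of a group came from separate mice, so p-values measure the spread between these samples. Symbols were found for 32608 genes, and positions and sequences came from GENCODE M21 on GRCm38. Tests used edgeR 4.0.16 in R 4.3.3 (filterByExpr, TMM, robust quasi-likelihood, two-sided, adjusted p under 0.05), on the 12 libraries of a labelled line, the 12 IgG libraries or, for classes, all 36. Standard errors were derived from the log2 fold change and the F statistic. Alternatives were DESeq2 size factors, no filter, DESeq2 1.42.0, limma-voom (limma 3.58.1), class or label terms and leaving out each library. Chosen after seeing the data were the correlations, the tables of Ighg2c detection and of PancO2 anti-PD-1 71, the ratio of Ighm to Igkc, the list genes under other settings, and the Ighg2c sums without each library. The rest was done in Python 3.11.15 with numpy 2.4.6, pandas 2.3.3, scipy 1.17.1 and matplotlib 3.10.9. For the peaks, a gene with a class median of 0 counted when it had more than 3 counts.

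The members, the 13 gene lists and the classes were chosen with earlier results of these data known. The 9 members are named throughout, and 1 gene of the B cell lineage list is not reported here. Of each list up to 3 genes were named, those with the greatest absolute log2 fold change among called genes with a mean of at least 1 CPM in either class, along with the 8 genes most like each of the member scores and the top variable gene of each peak. The edgeR step was tested on simulated data at a dispersion of 0.04 with 200 genes changed 4-fold. It recovered 198 of them among 16323 genes for MC38 anti-PD-1 against IgG (10 false calls). For H2-Ea against neither it recovered 197 (12 false calls). Apart from the changed genes, all simulated libraries had the same mean for a gene, with no mixture of classes. The real labelled groups mix classes, so these numbers do not measure the power of the labelled comparisons.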

Additional observations from a re-analysis of the deposited data

Results flagged for a closer look

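In each labelled group of 4 libraries a tumour was marked when its gap to the next tumour, as a part of the range of the group, passed Dixon's 95% critical value. Of 81 sets of gene and group, 18 were marked. For normal values the rule marks about 1 in 20, here 4.05. These are CPM, often of few counts, in labelled groups that mix classes. The 4.05 is therefore not the number to be expected here, and 18 is not shown to be an excess. PancO2 IgG 49 was marked as low with 2 counts of Ms4a1, where PancO2 IgG 54 also had 2. CT26 IgG 28 was marked on 4 counts of Ighg2b. The sets are not independent, since genes of 1 library were tested side by side.

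Of the 18, 13 lay in libraries of the Cp-high class. MC38 IgG 7 was marked in 5 genes, with 47.6 CPM of Ighm where the other 3 MC38 IgG libraries lay between 12.0 and 16.8 CPM, 7.36 CPM of Jchain (others 0.0971 to 1.04 CPM), 16.04 CPM of Igkc (0.194 to 1.98 CPM), 4.27 CPM of Ighg2b (0.0606 to 0.651 CPM) and 9.69 CPM of Ighg2c (0 to 0.195 CPM). CT26 anti-PD-1 46 was marked with 5.07 CPM of Jchain (0.123 to 0.739 CPM) and 3.69 CPM of Ighg2c (0 to 0.0326 CPM). MC38 anti-PD-1 17 was marked with 1.48 CPM of Ighg2b (0 to 0.0867 CPM) and 2.93 CPM of Ighg2c (0.0653 to 0.130 CPM), and PancO2 IgG 48 with 0.982 CPM of Ighg2b (0.0295 to 0.0844 CPM) and 1.37 CPM of Ighg2c (0 to 0.0422 CPM). CT26 IgG 28 had 0.219 CPM of Ighg2b (0 to 0.0340 CPM) and CT26 anti-CTLA4 36 had 0.776 CPM of Ighg2c (0 to 0.0602 CPM). Each of these libraries other than MC38 anti-PD-1 17 was the only Cp-high library of its labelled group.

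In the class with neither, MC38 IgG 2 was marked with 1.56 CPM of Cd79a (others 0.625 to 0.712 CPM), PancO2 anti-CTLA4 61 with 2.22 CPM of Cd79a (0.760 to 0.863 CPM), and PancO2 IgG 49 at the low end with 0.0844 CPM of Ms4a1 (0.140 to 0.148 CPM). In the H2-Ea class PancO2 anti-PD-1 71 was marked with 14.3 CPM of Cd79a (0.485 to 0.594 CPM) and 2.79 CPM of Ms4a1 (0.140 to 0.215 CPM). The causes were not tested.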

How the results depend on the processing

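The labelled comparisons gave 0 called members under all 45 alternative fits and in all 108 fits without 1 library. No paired analysis was possible because each number in the titles occurs in only 1 library. For the class comparisons, 71 log2 fold changes of members under another setting and 535 without 1 library kept their direction and their side of the threshold, and the exceptions follow. In H2-Ea against neither, 4 members were called with no filter, where Ms4a1 and Ighg2b were fitted too and 51.2% of all genes were called. Ms4a1 was higher there, at 1.58 (SE 0.54, edgeR adjusted p = 0.0139). Its level was 2.79 CPM in PancO2 anti-PD-1 71 and 0.0355 to 0.299 CPM in the other 11 H2-Ea libraries. The fit with no filter was not repeated without that library. Leaving out 1 library with the filter gave 2 to 4 called members in H2-Ea against neither. The range was 4 to 4 in Cp-high against neither and 5 to 6 in H2-Ea against Cp-high. Cd79a in H2-Ea against neither was called at -1.61 with limma-voom, -1.13 with label terms and -1.85 without PancO2 anti-PD-1 71, and in H2-Ea against Cp-high it was no longer called at 0.31 with limma-voom and 0.10 without that library. Igkc in H2-Ea against neither, not called, turned to 0.21 with limma-voom and ranged from -0.45 to 0.035 over the fits without 1 library, positive at 0.035 when MC38 IgG 2, at 0.032 when MC38 anti-CTLA4 11 and at 0.032 when CT26 anti-PD-1 41 was left out; the cause was not tested. At 8 times the class median 0 libraries were listed as peaks, against 3 at 4 times and at 3 times. With Cp above 500 CPM, 1 library, PancO2 IgG 49, changed class. Of the 8 genes most like the B cell surface members, 1 was shared when libraries were pooled and 5 at 0.2 CPM; for the antibody members 1 was shared when pooled. List counts, tried after seeing the data, stayed within 1.5 times except the skin list with no filter, which had 4, 2 and 5 called. DESeq2 size factors and no filter changed the direction of no called list gene, and without PancO2 anti-PD-1 71 it was 1, Siglech in H2-Ea against Cp-high, at -0.47. Depth limits Ms4a1 and the IgG genes most: a count of 0 allows up to 0.381 CPM in the shallowest library.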
